A study of Mus musculus with 6 samples.

Results

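The genes described here encode 2 families of splicing factors, the SR proteins and the heterogeneous nuclear ribonucleoproteins (hnRNPs), in kidney glomeruli of diabetic mice. They were chosen by symbol: Srsf followed by a digit, or Hnrnp, with a mean of at least 1 FPKM over the 6 libraries. FPKM gives a gene's fragments relative to its transcript length and to all mapped fragments of the library. Of 18822 genes with values, 12388 reached that mean, and 30 of these, 10 Srsf and 20 Hnrnp genes, were members. Another 2 symbols, Srsf12 and Hnrnpa1l2-ps2, matched the pattern but stayed under the mean.

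The study asked what proteinase 3 (PR3, gene Prtn3), a serine protease of neutrophil granules, does in diabetic kidney disease. All mice were of the C57BL/6J strain and had diabetic kidney disease, and RNA was sequenced from their glomeruli, where blood is filtered. The knockout group held 3 libraries of mice labelled PR3 knockout (PR3 KO 1 to 3), and the control group 3 libraries of wild-type mice (WT 1 to 3). Both groups carried the disease, so there was no non-diabetic control. The labels give no age, no sex, no description of the knockout allele and no way in which the diabetes was induced. They also do not say whether each library came from a separate animal, and p-values then measure only the spread between these libraries, which may be technical.

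SR proteins have RNA recognition motifs and a domain rich in arginine and serine, bind exonic enhancers and recruit the U1 and U2 particles of the spliceosome to nearby splice sites. Kinases of the SRPK and CLK families phosphorylate that domain and so set the position and activity of SR proteins in the cell. The hnRNPs package nascent RNA and often act as silencers of exons, and some also export, stabilise or localise messenger RNA. Members of both families control their own level by splicing in exons that send their messenger RNA to nonsense-mediated decay. In podocytes, the epithelial cells of the filter, the SRPK1 and SRSF1 pair is known for its part in the choice of splice site in the messenger RNA of VEGF-A.

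The deposited values hold no fragment counts. The most common value above 0 among 66 olfactory receptor genes, taken as a single fragment, gave a rough depth of 13200000 to 15100000 fragments per library. It was held by 3 to 8 genes per library. That value was 0.08 FPKM in WT 1 and 0.07 FPKM in the others, which differ only in the last deposited decimal. Spearman correlations across genes were 0.986 to 0.989 within PR3 KO, 0.967 to 0.988 within WT and 0.882 to 0.961 between the genotypes. The targeted gene Prtn3 was near the lowest measurable level in all libraries, with 0.14, 0 and 0.07 FPKM in PR3 KO and 0.46, 0.21 and 0.22 FPKM in WT (exact two-sided permutation test, p = 0.1, the smallest that 3 against 3 libraries allow). Markers of cell types differed between the genotypes. The summed level of 10 proximal tubule markers was 49900 to 66780 FPKM in PR3 KO and 8148 to 23670 FPKM in WT, and 8 of the 10 rose. The sum of 8 podocyte markers was 365.3 to 587.3 FPKM in PR3 KO and 655.1 to 1069 FPKM in WT (4 fell and 0 rose), that of 8 glomerular endothelial markers was 784.3 to 1090 against 2135 to 2599 FPKM (8 fell), and that of 8 macrophage markers 36.21 to 80.62 against 338.9 to 777.4 FPKM (8 fell). For 8 mesangial and smooth muscle markers it was 104.3 to 175.3 against 190.3 to 315.1 FPKM (5 fell and 0 rose). The sum of 8 immediate early genes was 102.3 to 110.2 FPKM in PR3 KO and 176.8 to 257.8 FPKM in WT, with 6 of the 7 tested falling. WT 2 stood apart with the lowest proximal tubule sum, and PR3 KO 3 with a neutrophil marker sum of 371.1 FPKM against 29.59 to 242.4 FPKM in the other 5 libraries. PR3 KO 2 had the highest erythroid marker sum, 2793 FPKM, against 693.9 to 1735 FPKM in the other 5. The part of this change in cell makeup in the results below was not tested. In bulk tissue, fewer cells of a type and less RNA per cell cannot be told apart.

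Both families were lower in the PR3 KO libraries. Of the 30 members 27 fell and 0 rose (limma on log2(FPKM + 1), Benjamini-Hochberg adjusted p under 0.05 over all 12388 genes), against 41.1% of all tested genes that fell and 11.7% that rose. No member had a positive difference, so none was higher at an unadjusted p under 0.05 either. In all 30 members the highest PR3 KO library lay below the lowest WT library, which was so for 49.1% of all tested genes. The median log2 difference of FPKM + 1 was -0.71 over the members, with a range of -0.97 to -0.18, and -0.26 over all tested genes. Relative to that shift of all genes the members' median was -0.46, and 20 of the 30 lay below the lower quartile of all genes, -0.59.

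The size of the fall, and for 3 genes its sign, rested on how the libraries were scaled. The FPKM values summed to 566772 to 604697 in PR3 KO and to 494316 to 543564 in WT, so the libraries do not share a common total. Median-of-ratios scaling, which sets the typical gene equal between libraries, moved the median difference of all genes to 0.03, and equal sums moved it to -0.40. With median-of-ratios scaling 19 of the 30 members fell and 0 rose (0 also at an unadjusted p under 0.05), against 22.3% of all genes that fell and 25.4% that rose, and the members' median was -0.39. In that scaling 27 members kept a negative difference, and Srsf4, Hnrnpul1 and Hnrnpl had a positive one that did not pass. With equal sums all 30 fell. Over the other settings tried, which changed the pseudocount, filter, variance model, block or libraries, the adjusted p of the 27 members ran from 0.000287 (Srsf11) to 0.0369 (Hnrnpll), with Hnrnpab reaching 0.0600.

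The sum over the members gives the same order library by library. The 30 genes summed to 1205, 1255 and 1242 FPKM in PR3 KO 1 to 3 and to 1880, 2030 and 1978 FPKM in WT 1 to 3. The mean sum was 1234 ± 26.3 FPKM in PR3 KO and 1963 ± 76.0 FPKM in WT (SD, n = 3 each), 37.1% lower, and after median-of-ratios scaling it was 1373 ± 24.5 against 1738 ± 73.4 FPKM. The SR genes alone were 37.4% lower and the hnRNP genes 37.0% lower. The mean log2 level of the SR genes minus that of the hnRNP genes, which no scaling of a library changes except through the added pseudocount of 1, was -0.341, -0.336 and -0.326 in PR3 KO and -0.279, -0.417 and -0.290 in WT. The WT values spanned those of PR3 KO, and the genotype difference of -0.0057 was far smaller than the WT SD of 0.0769. Among the WT libraries, WT 2 was the highest in 23 of the 30 members as deposited. It also had the lowest FPKM sum over all genes, 494316. After median-of-ratios scaling the members' sum was lowest in WT 2. It was then 1685 FPKM, against 1706 FPKM in WT 1 and 1821 FPKM in WT 3.

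**Figure D1:**
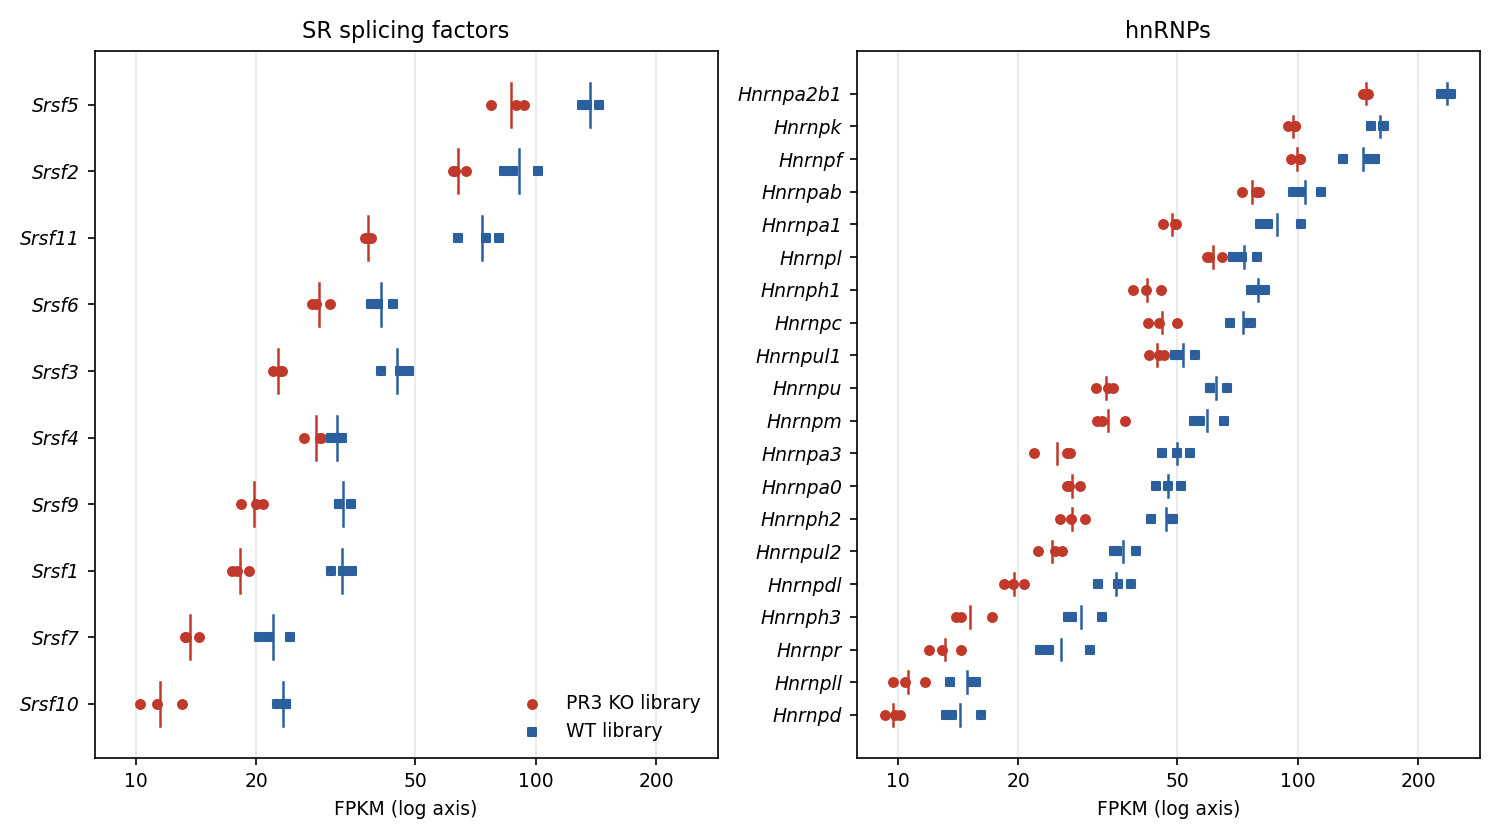
FPKM on a log axis of each member in each library, SR splicing factors on the left and hnRNPs on the right, ordered by mean level. Circles are the 3 PR3 KO libraries, squares the 3 WT libraries and vertical bars the group means, and in all 30 genes as deposited the PR3 KO points lie left of the WT points; with median-of-ratios scaling the mean difference of Srsf4, Hnrnpul1 and Hnrnpl turns.

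Among the SR genes 9 of 10 fell, with a median log2 difference of -0.68. Srsf3 encodes the smallest member of the family, which also acts in messenger RNA export and polyadenylation. It lies at chr17:29032628-29043373 on the plus strand (GRCm38, GENCODE M21, as for all gene coordinates here). Its level was 22.85, 22.03 and 23.29 FPKM in PR3 KO 1 to 3 and 41.10, 48.17 and 45.92 FPKM in WT 1 to 3. The PR3 KO libraries differed little from each other and lay far below the lowest WT library. The mean went from 45.1 ± 3.61 FPKM in WT to 22.7 ± 0.640 FPKM in PR3 KO (SD), 49.6% lower, with a log2 difference of -0.95 (SE 0.10, adjusted p = 0.000742).

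Srsf10, at chr4:135855747-135869908 on the plus strand, encodes an SR protein that represses splicing when it is dephosphorylated, as in heat shock. It measured 11.29, 13.07 and 10.26 FPKM in PR3 KO and 22.58, 23.81 and 23.72 FPKM in WT. With 50.6% less FPKM in PR3 KO, it showed the steepest relative drop of the 30 members on the linear scale, and its log2 difference of -0.96 had an SE of 0.105 and an adjusted p of 0.000825.

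Srsf1, the founding SR protein and a known oncogene product, lies at chr11:88047373-88053755 on the plus strand. Its FPKM was 17.45, 19.22 and 17.91 in PR3 KO and 30.86, 34.82 and 32.97 in WT. The groups were separated by more than the whole range within either one, and the log2 difference was -0.82 (SE 0.0917, adjusted p = 0.000831).

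Srsf11, at chr3:158010473-158036639 on the minus strand, encodes a serine-rich member that interacts with U2AF. Its FPKM was 37.51, 38.79 and 38.15 in PR3 KO and 75.16, 63.99 and 81.05 in WT. The WT libraries were the spread group here (SD 8.67 FPKM) and PR3 KO the tight one (SD 0.640 FPKM), with no overlap. The log2 difference was -0.92 (SE 0.112, adjusted p = 0.000954).

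Srsf9, a close relative of Srsf1, lies at chr5:115327177-115333080 on the plus strand. It had 20.04, 20.79 and 18.39 FPKM in PR3 KO and 34.55, 32.30 and 32.20 FPKM in WT, and a log2 difference of -0.71 (SE 0.0907, adjusted p = 0.00105). Its fall also passed with median-of-ratios scaling (log2 difference -0.40, adjusted p = 0.0156), as did those of Srsf3 (-0.63), Srsf10 (-0.65), Srsf1 (-0.50), Srsf11 (-0.60) and Srsf7 (-0.34, adjusted p = 0.0155).

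Srsf5 and Srsf2, the 2 most abundant SR genes, fell less than the SR genes described above. Srsf5, known to respond to serum and insulin, lies at chr12:80945504-80950507 on the plus strand and had 77.34, 89.25 and 93.34 FPKM in PR3 KO and 134.72, 144.28 and 130.47 FPKM in WT. It fell by 36.5% on the FPKM scale (log2 difference -0.65, adjusted p = 0.00324). Median-of-ratios scaling reduced the log2 difference to -0.33 (adjusted p = 0.0539). Srsf2, a nuclear speckle protein recurrently mutated in blood cancers, lies at chr11:116849901-116853094 on the minus strand and had 62.77, 62.17 and 67.00 FPKM in PR3 KO and 87.62, 83.49 and 101.41 FPKM in WT. Its mean was 29.6% lower (adjusted p = 0.00821), and this too did not pass after the scaling (log2 difference -0.17, adjusted p = 0.342). Of the other SR genes that fell, Srsf7 went from 22.0 ± 2.10 to 13.7 ± 0.631 FPKM and Srsf6 from 41.0 ± 2.77 to 28.8 ± 1.60 FPKM, the latter with an adjusted p of 0.211 after the scaling.

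Among the hnRNP genes 18 of 20 fell, with a median log2 difference of -0.73. The A/B group holds the core proteins that package nascent RNA and counter SR proteins at many 5' splice sites. Hnrnpa2b1, at chr6:51460932-51469894 on the minus strand, was the most abundant of all 30 members. It had 149.84, 149.22 and 145.15 FPKM in PR3 KO and 238.33, 227.30 and 242.05 FPKM in WT. Both groups were tight and lay far apart, and the log2 difference was -0.67 (SE 0.106, adjusted p = 0.00202). Median-of-ratios scaling brought it to -0.34 (adjusted p = 0.0720).

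Hnrnpa3, at chr2:75659261-75669407 on the plus strand, encodes a relative of hnRNP A2 that also binds telomeric repeats. Its FPKM was 26.41, 26.91 and 21.87 in PR3 KO and 45.86, 53.65 and 49.92 in WT, a mean 49.7% lower. Its log2 difference of -0.97 was the largest of the 30 members as deposited (SE 0.114, adjusted p = 0.000912). Hnrnpa0, a gene with 1 annotated transcript at chr13:58125879-58128556 on the minus strand, encodes an A/B protein that binds AU-rich elements. It had 26.45, 28.61 and 26.74 FPKM in PR3 KO and 47.28, 50.93 and 44.25 FPKM in WT (log2 difference -0.78, adjusted p = 0.000963). Hnrnpa1, whose protein is the classical antagonist of SRSF1, went from 88.9 ± 11.6 to 48.4 ± 1.98 FPKM (adjusted p = 0.00131), and Hnrnpab, a relative of the D group, from 104.2 ± 8.79 to 76.9 ± 4.01 FPKM (adjusted p = 0.0136). Hnrnpab was the only member whose call was lost without a single library, PR3 KO 2 (log2 difference -0.39, adjusted p = 0.0600).

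The D group binds AU-rich elements and affects the stability of messenger RNA. Hnrnpdl, at chr5:100033577-100039664 on the minus strand, had 18.47, 20.69 and 19.38 FPKM in PR3 KO and 31.64, 38.30 and 35.54 FPKM in WT. All PR3 KO libraries lay well below the lowest WT library, and the log2 difference was -0.82 (SE 0.103, adjusted p = 0.00103). Hnrnpd itself, known as AUF1, went from 14.3 ± 1.60 to 9.75 ± 0.415 FPKM (log2 difference -0.51, adjusted p = 0.00549), and the -0.20 left after median-of-ratios scaling did not pass. Hnrnpc, whose protein binds uridine tracts and keeps cryptic exons out, fell from 73.1 ± 4.86 to 45.7 ± 3.84 FPKM.

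The F/H group binds runs of guanines and often promotes inclusion of the exons beside them. Hnrnph1, at chr11:50376990-50386528 on the plus strand, had 38.62, 45.42 and 41.85 FPKM in PR3 KO and 78.97, 83.00 and 76.27 FPKM in WT. The groups did not overlap, the mean was 47.2% lower in PR3 KO, and the log2 difference was -0.91 (SE 0.103, adjusted p = 0.000840). Hnrnph3 and Hnrnph2 fell by 47.3% and 41.6% on the FPKM scale. Hnrnpf, the most abundant of the group, fell by 31.6% (145.4 ± 14.2 to 99.4 ± 3.03 FPKM), with an adjusted p of 0.190 after median-of-ratios scaling.

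Hnrnpu, at chr1:178321108-178337797 on the minus strand, encodes the scaffold attachment factor that ties RNA to chromatin. It had 33.60, 34.52 and 31.23 FPKM in PR3 KO and 60.34, 66.55 and 60.30 FPKM in WT, a mean 46.9% lower with a log2 difference of -0.89 (SE 0.0959, adjusted p = 0.000816). Its paralogs moved less. Hnrnpul2 fell by 33.5% on the FPKM scale (adjusted p = 0.00281), and Hnrnpul1 did not pass.

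Hnrnpk, at chr13:58391142-58403343 on the minus strand, encodes a protein with KH domains that binds cytosine tracts and was the second in abundance. It had 94.61, 98.31 and 98.63 FPKM in PR3 KO and 152.32, 163.58 and 164.16 FPKM in WT. The log2 difference was -0.71 (SE 0.103, adjusted p = 0.00148), and it also passed with median-of-ratios scaling (adjusted p = 0.0315). Of the remaining genes, Hnrnpm, whose protein binds guanine and uridine rich sites, went from 59.1 ± 5.43 to 33.6 ± 2.88 FPKM, and Hnrnpr, a relative of Syncrip, from 25.6 ± 4.05 to 13.1 ± 1.22 FPKM. Hnrnpll, best known for the splicing of CD45 in lymphocytes, went from 14.9 ± 1.15 to 10.6 ± 0.995 FPKM (log2 difference -0.45, adjusted p = 0.00940), and this did not pass after the scaling (-0.14, adjusted p = 0.253).

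The 3 members that did not pass as deposited still had non-overlapping values. Srsf4, known as SRp75, had 26.43, 28.96 and 29.14 FPKM in PR3 KO and 32.09, 32.87 and 30.87 FPKM in WT (log2 difference -0.18, adjusted p = 0.126). Hnrnpul1 had 44.86, 42.54 and 46.27 against 50.28, 55.43 and 49.34 FPKM (-0.21, adjusted p = 0.0994), and Hnrnpl, which binds CA repeats, 60.04, 59.24 and 64.60 against 72.31, 79.15 and 68.75 FPKM (-0.25, adjusted p = 0.0678). With median-of-ratios scaling their log2 differences turned to 0.14, 0.12 and 0.07, and none passed. The spread among members is wider than the SE of a single gene, which was 0.0887 to 0.129 over the 30. At the low end, Srsf12 was listed at 0.02 to 0.05 FPKM in every library and Hnrnpa1l2-ps2 at 0 in 4 of 6, so that no difference was detectable at this depth (exact two-sided permutation tests, p = 1 and p = 0.4).

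**Figure D2:**
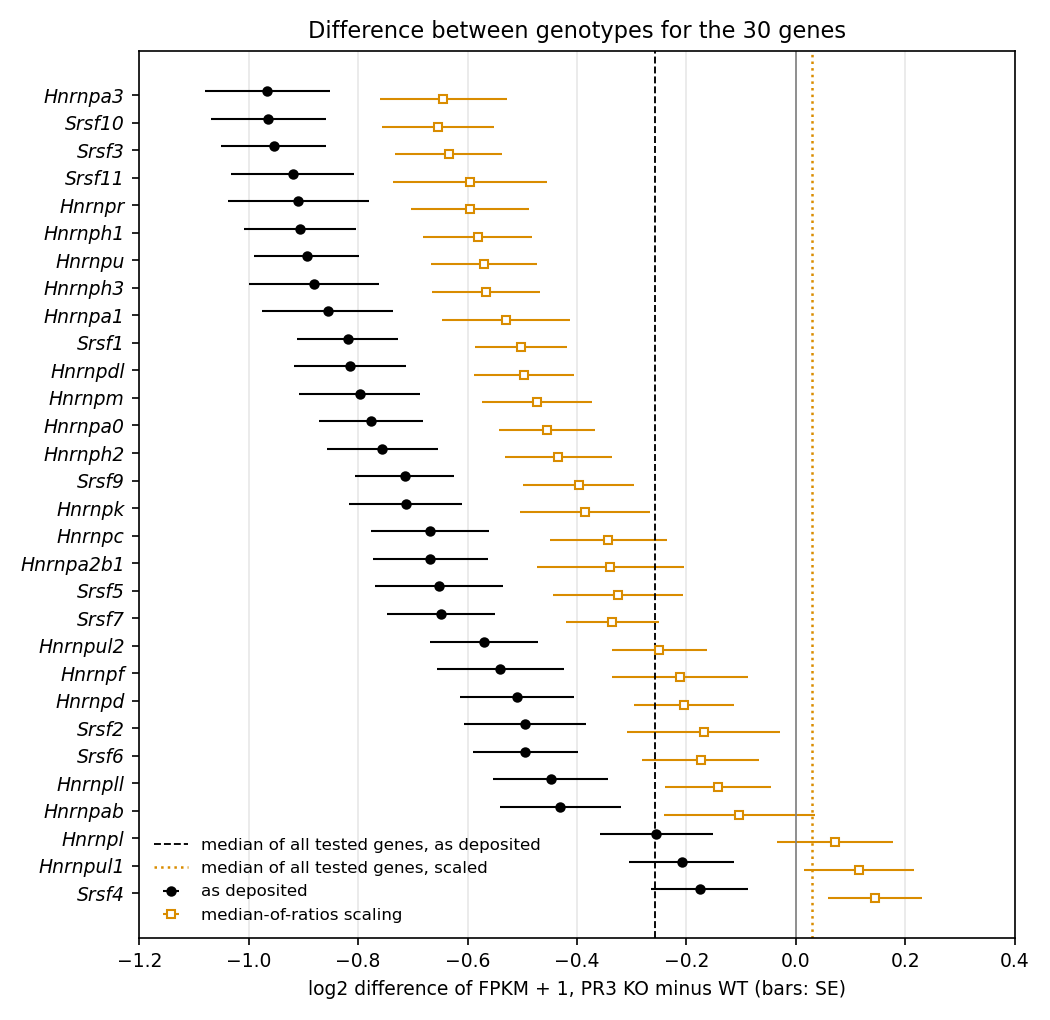
Difference between genotypes, PR3 KO minus WT, in log2(FPKM + 1) for the 30 genes, with bars of 1 SE. Filled circles are the values as deposited, from -0.97 to -0.18, open squares those after median-of-ratios scaling, in which Srsf4, Hnrnpul1 and Hnrnpl lie above 0, and the vertical lines mark the median of all tested genes at -0.26 and 0.03.

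Ratios of 2 genes within a library do not depend on how that library is scaled, and they differed between the genotypes for pairs that fell unequally. These pairs were chosen after their values were seen, so they are given without a test. The FPKM ratio of Srsf3 to Srsf4 was 0.8645, 0.7607 and 0.7992 in PR3 KO and 1.2808, 1.4655 and 1.4875 in WT. In every WT library Srsf3 thus exceeded Srsf4, and in every PR3 KO library it was below it. The ratio of Hnrnpu to its paralog Hnrnpul1 was 0.749, 0.8115 and 0.675 in PR3 KO and 1.2001, 1.2006 and 1.2221 in WT, the same turn of order. Hnrnph1 to Hnrnpf was 0.422 ± 0.0243 in PR3 KO and 0.549 ± 0.0547 in WT, and Hnrnpa1 to Hnrnpl 0.790 ± 0.0290 and 1.21 ± 0.0904 (SD, n = 3 each), in both cases without overlap. By contrast, the ratio of Srsf1 to Hnrnpa1, whose proteins oppose each other at splice sites, was 0.377 ± 0.0348 in PR3 KO and 0.372 ± 0.0272 in WT, and the libraries overlapped.

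The counts in the lists of related genes are to be read against the 41.1% of all tested genes that fell as deposited and the 22.3% that fell and 25.4% that rose with median-of-ratios scaling. Of 20 other regulators of alternative splicing 18 fell and 1 rose, with a median log2 difference of -0.68. Qk (quaking) went from 51.4 ± 7.31 to 19.2 ± 2.26 FPKM (adjusted p = 0.000735), Rbm25 from 62.5 ± 8.47 to 24.5 ± 3.25 FPKM (0.000793), the muscleblind gene Mbnl1 from 41.7 ± 6.49 to 17.6 ± 1.46 FPKM (0.000825) and Khdrbs1, known as Sam68, from 29.1 ± 1.93 to 17.2 ± 0.691 FPKM (0.00102). The gene that rose was Esrp2, an epithelial splicing regulator, from 9.05 ± 1.86 to 15.5 ± 1.27 FPKM (log2 difference 0.73, adjusted p = 0.00538). It moved in the direction of the proximal tubule markers, whose part in it was not tested. Of 8 markers of the loop, distal tubule and collecting duct 4 fell and 1 rose. Their summed level was 4841 to 5413 FPKM in PR3 KO and 3675 to 4328 FPKM in WT. The paralog Esrp1 did not pass (log2 difference -0.16, adjusted p = 0.380).

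Among 17 SR-related proteins, which share the arginine and serine rich domain, 14 fell and 0 rose, with a median log2 difference of -0.57. Luc7l3, a U1 associated protein, had the largest difference of the list, from 84.2 ± 11.8 to 25.4 ± 4.70 FPKM (log2 difference -1.70, adjusted p = 0.000717). Rbm39 fell from 93.0 ± 1.28 to 47.6 ± 4.36 FPKM, Luc7l2 from 43.8 ± 3.41 to 23.0 ± 1.72 FPKM and Pnn (pinin) from 21.9 ± 0.398 to 11.2 ± 1.73 FPKM. Of 8 SR protein kinases 6 fell and 0 rose (median -0.53): Prpf4b from 13.3 ± 0.667 to 7.71 ± 0.735 FPKM, Clk1 from 58.1 ± 5.16 to 33.8 ± 4.14 FPKM, Clk2 from 12.9 ± 1.46 to 7.44 ± 0.928 FPKM and Srpk2 from 11.0 ± 0.239 to 7.24 ± 0.507 FPKM. Srpk1, named after its values were seen because its protein phosphorylates SRSF1, had 16.71, 19.24 and 17.26 FPKM in PR3 KO and 18.54, 15.35 and 18.04 FPKM in WT. These overlapped (log2 difference 0.04, adjusted p = 0.791). After median-of-ratios scaling Srpk1 was called higher (0.35, adjusted p = 0.0452).

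In the exon junction and nonsense-mediated decay list 9 of 13 fell and 0 rose (1 at an unadjusted p under 0.05), with a median of -0.46. Upf3b went from 19.5 ± 2.78 to 7.24 ± 0.770 FPKM, Upf2 from 12.6 ± 1.70 to 4.81 ± 0.937 FPKM, Upf3a from 24.8 ± 0.676 to 14.6 ± 1.28 FPKM and Magohb from 7.65 ± 0.925 to 3.74 ± 0.511 FPKM. Of 7 hnRNP proteins that carry other symbols 4 fell and 0 rose (median -0.35): Syncrip with a log2 difference of -0.75, Raly from 94.8 ± 6.54 to 64.4 ± 3.70 FPKM, Ptbp1 from 86.4 ± 5.07 to 65.6 ± 5.36 FPKM, and Cirbp with a log2 difference of -0.35. Of 15 U2AF and SF3 genes, whose proteins act at or near the 3' splice site, 6 fell and 0 rose (median -0.25), a share close to the 41.1% of all genes. In PR3 KO against WT, Sf3b1 was at 24.5 ± 0.659 against 40.1 ± 4.19 FPKM and U2af1 at 39.0 ± 1.09 against 60.6 ± 4.44 FPKM. Sf3b3 was at 13.9 ± 1.17 against 19.1 ± 1.33 FPKM and Sf3a3 at 12.9 ± 0.514 against 18.2 ± 2.39 FPKM. Of 20 proteins of the small nuclear ribonucleoproteins (snRNPs) 7 fell and 0 rose (median -0.18), again a share near that of all genes, among them Snrpf, Snrpb2, Snrpd1 and Snrpb with log2 differences of -0.79, -0.97, -0.69 and -0.56. Of 6 genes of nuclear import and arginine methylation, which carry and modify both families, 1 fell and 0 rose (median -0.17), and this was Prmt1, from 34.0 ± 3.92 to 22.8 ± 1.71 FPKM.

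The last 3 lists thus had medians above the -0.26 of all genes, as had 81 cytosolic ribosomal protein genes, a family used for comparison, with 15 that fell, 1 that rose and a median of -0.18. With median-of-ratios scaling the medians of the other regulators, SR-related proteins, kinases, decay factors and hnRNP proteins of other symbols stayed below 0, at -0.36, -0.26, -0.24, -0.19 and -0.04, while those of the U2AF and SF3, snRNP, import and ribosomal lists turned to 0.07, 0.14, 0.14 and 0.15. In that scaling 12 of the 20 other regulators fell and 1 rose, and 9 of the 17 SR-related proteins fell and 0 rose (0 also at an unadjusted p under 0.05 in limma). Of the 8 kinases 3 fell and 1 rose, and of the 13 decay factors 4 fell and 1, Smg6, rose. Of the 7 hnRNP proteins of other symbols 1, Syncrip, fell and 2, Pcbp2 and Rbmx, rose, while Raly, Ptbp1 and Cirbp no longer passed. Of the 15 U2AF and SF3 genes 1 fell and 0 rose (1 at an unadjusted p under 0.05 in limma), and U2af1, Sf3b3 and Sf3a3 no longer passed. Of the 20 snRNP genes 2 fell and 1 rose. Of the 6 import and methylation genes 0 fell (0 also at an unadjusted p under 0.05 in limma) and 1, Prmt5, rose, and Prmt1 no longer passed. Of the 81 ribosomal protein genes 0 fell (1 at an unadjusted p under 0.05 in limma) and 4 rose. Genes named here for the scaled counts were chosen after their values were seen. As deposited, the lists in which 0 genes rose also had 0 higher at an unadjusted p under 0.05 in limma, apart from the 1 decay factor counted above. No test compared the lists with each other.

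**Figure D3:**
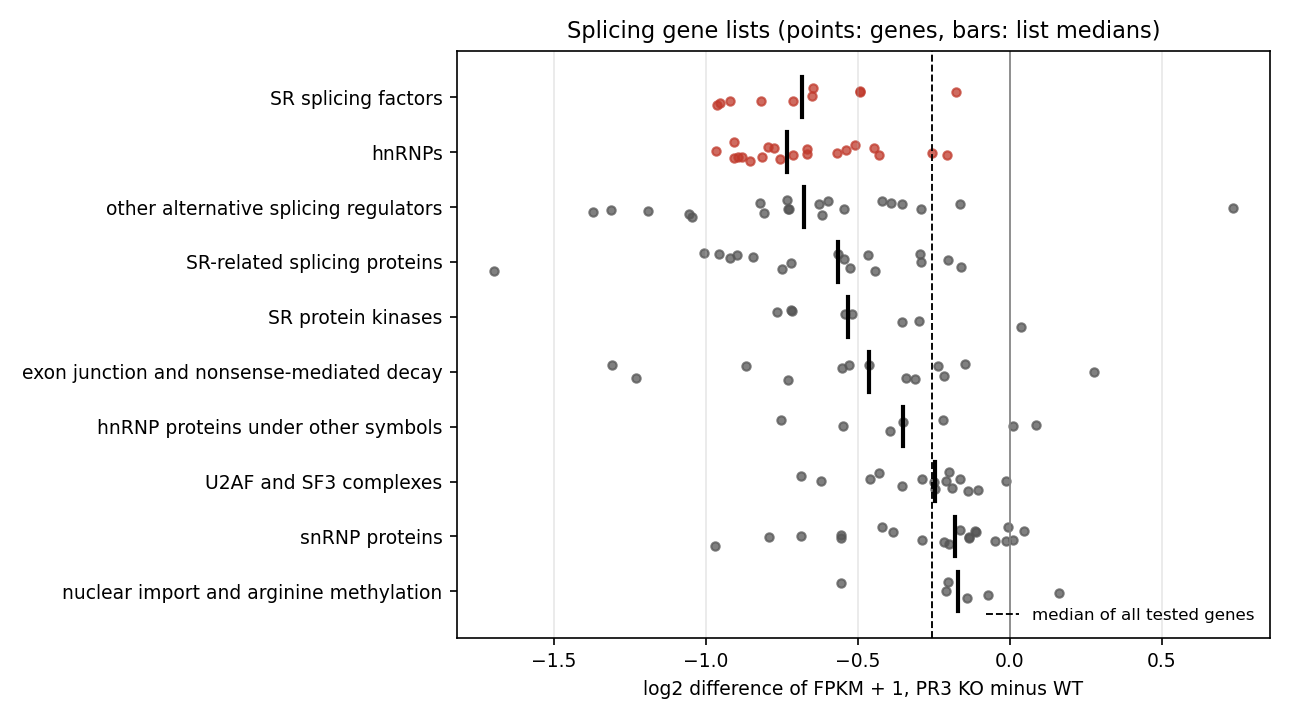
Difference between genotypes, PR3 KO minus WT, in log2(FPKM + 1) as deposited, for every tested gene of the SR and hnRNP families and of the 8 lists of related genes. Points are genes, short bars are medians, from -0.73 for the hnRNPs to -0.17 for nuclear import and arginine methylation, and the dashed line is the median of all tested genes at -0.26; with median-of-ratios scaling the medians of the lower 3 lists lie above 0.

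Sequence composition differed between the members and the other genes and moved with the size of the difference. In the longest coding transcript of each gene the median GC content was 44.8% over the 30 members and 50.3% over 12225 tested genes. Spearman's rho between GC content and the log2 difference was 0.568 over the members and 0.202 over all genes, given as a description across genes that share the same 6 libraries. The lowest GC contents belonged to Hnrnpa3 (39.9%) and Srsf3 (40.0%), both at the steep end, and Srsf4 (56.8%), Hnrnpl (54.2%) and Hnrnpul1 (54.0%) were among the highest. Srsf9 and Hnrnpa0 broke this order, with 56.2% and 55.4% GC and log2 differences of -0.71 and -0.78. At the low end of GC content, Hnrnpd (41.7%) and Srsf6 (42.8%) had smaller log2 differences, -0.509 and -0.495. In the quintile of all genes with the lowest GC content, 32.6 to 44.4%, the median log2 difference was -0.46, and the 14 members in it had a median of -0.79. In the next quintile, 44.4 to 48.4%, the values were -0.30 for all genes and -0.84 for 6 members. From 48.4 to 52.2% they were -0.18 and -0.54 (5 members), from 52.2 to 56.0% they were -0.124 and -0.255 (3 members), and from 56.0 to 72.8% they were -0.17 and -0.445 (2 members). The part of GC content in the result was not tested.

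**Figure D4:**
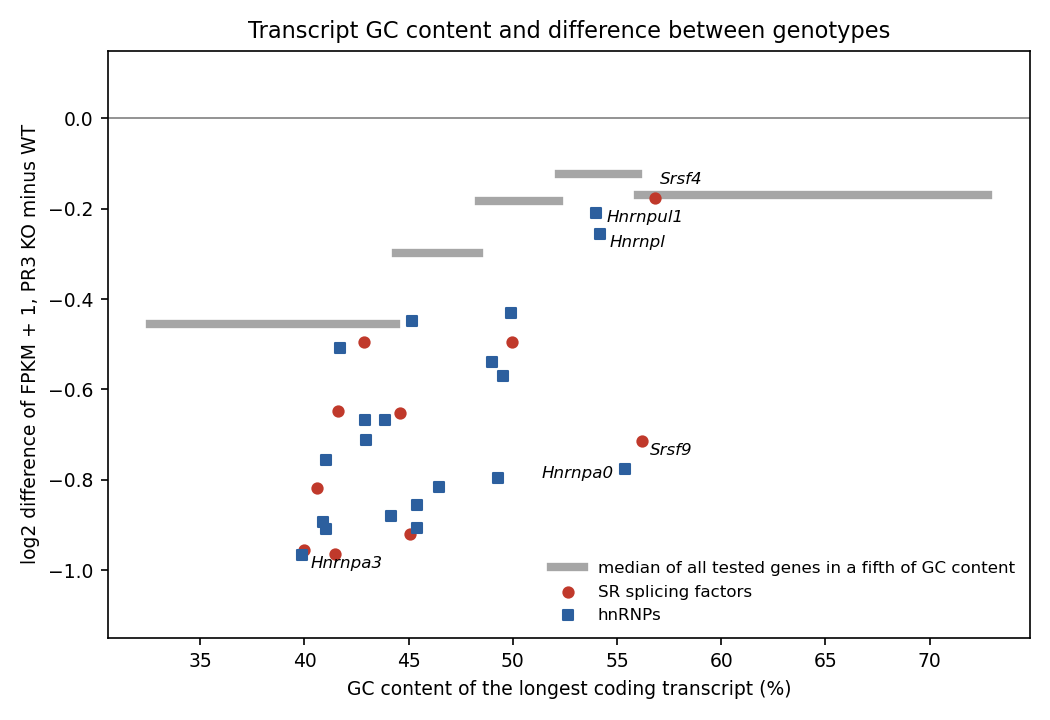
GC content of the longest coding transcript in percent against the difference in log2(FPKM + 1), PR3 KO minus WT, as deposited. Circles are SR and squares hnRNP genes, and grey bars are the median of all tested genes in each quintile of GC content. Most members lie below the grey bars. Srsf4, Hnrnpul1 and Hnrnpl, which lie above 0 after median-of-ratios scaling, sit close to the bars. So do Srsf6 and Hnrnpd, which fell as deposited.

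A value per gene adds up all its transcripts, so a switch from a coding to a decay-prone isoform cannot be seen here. In GENCODE M21, 19 of the 30 members (63.3%) have a transcript annotated for nonsense-mediated decay, against 28.5% of 12223 tested protein-coding genes. A transcript with a retained intron is annotated for 73.3% of the members against 59.1%, and 17 members (56.7%) have both kinds, against 22.7%. Members also have more annotated transcripts, a median of 7.5 against 5, and these shares were not adjusted for that. The median log2 difference was -0.71 over the members with a decay transcript and -0.76 over those without, and over all genes -0.23 and -0.26. Some values are uncertain because reads can be shared. Hnrnpa3 has 26 annotated pseudogenes with at least 95% identity over 300 bases, Hnrnpa1 has 9, Hnrnpf 6, Srsf3 3, Srsf10 and Hnrnpk 2 each, and Hnrnpr, Hnrnph2, Hnrnpc and Srsf5 1 each. The use of strand is not given in the sources used here, so reads of Hnrnpu and Cox20, Hnrnph3 and Rufy2, Hnrnpk and Rmi1, Hnrnpab and Phykpl, and Srsf2 with Mettl23 and Mfsd11, which overlap on opposite strands, cannot be told apart. Another 7 members, Srsf1 among them, overlap only noncoding genes on the opposite strand, and Hnrnpm and Hnrnpul2 overlap a coding gene on their own strand. Hnrnph1, Hnrnpdl, Hnrnpa0, Srsf9, Srsf11 and Srsf7 have neither such pseudogenes nor such overlaps and fell with both scalings. Hnrnpa2b1 and Srsf6, equally free of them, did not pass after median-of-ratios scaling. Hnrnpul1, also free of them, passed with neither scaling.

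The promoters of the members are described next, and their part in the result was not tested. RefSeq start sites (GRCm38.p6) were found for 28 of the 30 members, with 40 windows of 250 bases before to 50 bases after a start. The median GC content was 67.8% in these windows and 52.7% in all 32851 windows of 27025 genes, and the median number of CpG dinucleotides was 31.5 and 7. All windows include those of genes under the mean of 1 FPKM. The shares below therefore do not compare the members with other expressed genes. The letters GGGCGG, the box bound by Sp1 and its relatives, occurred on either strand in 82.5% of the members' windows and 35.7% of all windows, and CCAAT, the box bound by NF-Y, in 52.5% and 37.4%. CCGGAAG, a core bound by ETS factors, was found in 10 of 40 and in 8.86% of all windows, TATAAA in 4 of 40 and 13.6%, and TGACGTCA, the full site of CREB, in 0 of 40 and 1.79%. None of these motifs overlaps another by its letters in the windows below. The 250 bases before the start follow, 5' to 3' on the gene's strand, with matches to CCAAT and GGGCGG on either strand in capitals, for Hnrnpr (chr4:136310692-136310941, plus strand), Hnrnpa1 (chr15:103240147-103240396, plus), Srsf9 (chr5:115326927-115327176, plus), and Hnrnpul1 (chr7:25754760-25755009, minus), which did not pass.
Hnrnpr: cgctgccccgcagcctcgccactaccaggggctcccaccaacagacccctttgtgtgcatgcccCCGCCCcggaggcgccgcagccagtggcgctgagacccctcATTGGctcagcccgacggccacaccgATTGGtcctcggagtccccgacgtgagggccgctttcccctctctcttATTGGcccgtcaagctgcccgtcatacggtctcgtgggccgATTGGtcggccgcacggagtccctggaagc
Hnrnpa1: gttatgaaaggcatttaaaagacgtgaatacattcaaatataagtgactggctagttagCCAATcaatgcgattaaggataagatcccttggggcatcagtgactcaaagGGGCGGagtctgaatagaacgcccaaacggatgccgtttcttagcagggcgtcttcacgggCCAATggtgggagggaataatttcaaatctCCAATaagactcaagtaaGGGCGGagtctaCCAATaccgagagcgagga
Srsf9: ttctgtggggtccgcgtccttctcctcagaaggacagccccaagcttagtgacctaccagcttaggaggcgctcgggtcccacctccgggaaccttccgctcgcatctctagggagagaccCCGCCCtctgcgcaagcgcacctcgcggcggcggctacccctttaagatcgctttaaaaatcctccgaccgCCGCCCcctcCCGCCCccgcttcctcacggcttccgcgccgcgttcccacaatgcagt
Hnrnpul1: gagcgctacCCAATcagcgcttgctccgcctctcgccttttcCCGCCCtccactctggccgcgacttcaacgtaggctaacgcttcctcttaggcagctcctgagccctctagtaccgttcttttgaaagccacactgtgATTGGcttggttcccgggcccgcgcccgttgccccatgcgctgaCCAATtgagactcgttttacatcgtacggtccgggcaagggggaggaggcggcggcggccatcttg

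The Hnrnpr window shown, of the first of its 2 RefSeq starts, holds 4 CCAAT boxes and 1 GGGCGG box, while the bases before the other start hold 0 and 2. That of Hnrnpa1 holds 4 and 2. Srsf9 has 3 GGGCGG boxes and 0 CCAAT boxes, and it fell with both scalings as Hnrnpr and Hnrnpa1 did. Hnrnpul1, with 3 CCAAT boxes and 1 GGGCGG box, had a log2 difference of -0.21 that did not pass (0.12 with median-of-ratios scaling). The presence of these boxes is a description of the windows, and binding was not measured.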

How the data were processed

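Messenger RNA selected on oligo(dT) beads was sequenced on a DNBSEQ instrument, per the labels' protocols. The submitters' processing notes name Bowtie2 and the build GRCm38.p6. Its version, the counting tool, the annotation and the use of strand were not given in the sources used here. The authors deposited FPKM, per the file headers, rounded to 2 decimals, with no counts, so the depth is known only roughly and exact counting intervals could not be given. The members and gene lists were chosen with earlier results of these data known.

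Symbols were matched by gene ID to RefSeq (18770 of 18822). The deposited FPKM of genes whose mean reached 1 were fitted as log2(FPKM + 1) with limma 3.58.1 (statmod 1.5.0, R 4.3.3), genotype as the only term, trend and robust moderation, and Benjamini-Hochberg adjustment over 12388 genes at 0.05. The fit was tested on simulated data that held no shift of all genes between the genotypes, so that test did not address the scaling. Log2 differences are PR3 KO minus WT and understate changes of low genes. Genes under the filter were compared by exact permutation. No library was left out, and no libraries held identical values.

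Values for every library are given for the up to 5 members per family with the smallest adjusted p in each direction and the 2 most abundant. From each list up to 4 genes with the smallest adjusted p are named. Other genes were named after their values were seen. The nuclear-retained long RNAs Malat1 and Neat1 were also listed, and 0 of these 2 were tested. Another listed gene is not reported here. GC content, transcripts and coordinates came from GENCODE M21 (GRCm38), pseudogenes from blastn 2.17.0, and promoters from RefSeq. Alternatives covered the pseudocount (0.1), the filter, 2 scalings, the variance model, the replicate number and left-out libraries. Python 3.11.15, pandas 2.3.3, numpy 2.4.6, scipy 1.17.1 and matplotlib 3.10.9 were used.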

Additional observations from a re-analysis of the deposited data

How the results depend on the processing

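Of the 30 members 27 fell as deposited, 19 after median-of-ratios scaling and 30 with equal sums, and the members' median log2 difference of -0.71 became -0.39 and -0.88. With median-of-ratios scaling the log2 differences of Hnrnpl, Hnrnpul1 and Srsf4 turned to 0.071, 0.115 and 0.144, and 8 members no longer passed (Hnrnpa2b1, Srsf5, Hnrnpf, Hnrnpd, Srsf2, Srsf6, Hnrnpll and Hnrnpab). Over all tested genes 5091 fell and 1454 rose as deposited, 2767 and 3149 with median-of-ratios scaling, and 6324 and 896 with equal sums. Leaving out each library in turn left 26 to 27 members that fell and 0 that rose, a median of -0.74 to -0.70, 3837 to 4764 genes that fell and 917 to 1514 that rose (917 without PR3 KO 1 and 943 without PR3 KO 3), and an SR minus hnRNP difference of -0.050 to 0.019. Without WT 2 and PR3 KO 3 together 27 members fell, and 3976 genes fell and 1010 rose. A replicate block gave 27 members that fell, 5143 genes that fell and 1550 that rose, and changed no member's call. The labels do not say whether libraries of the same number are paired. Deviations of same-numbered libraries correlated at 0.0677, 0.270 and -0.0866, and not every library correlated best with its own number. So few correlations cannot settle whether the libraries are paired. A pseudocount of 0.1, no filter (18231 genes) and a fit without trend and robust moderation changed no member's call. With 3 libraries per genotype and no counts, differences as small as those of Srsf4, Hnrnpul1 and Hnrnpl were near the limit of what could be called.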
